A study of Homo sapiens with 2 samples.

Results

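The tripartite motif (TRIM) genes were followed in colon organoids grown from 1383D6, a line of human induced pluripotent stem cells, without cytokines and after exposure to 3 of them. Members were chosen by symbol (TRIM followed by a number) and by measured abundance, a minimum of 10 unique molecular identifiers (UMIs, each counting 1 captured RNA molecule) over both libraries. Of 76 such symbols among 36601 listed genes, 61 reached that minimum and 15 did not. The comparison of the libraries that sorts members into higher, lower and within 2-fold was therefore also part of how they were grouped, and its values are given as a description. One library (CNT) held untreated organoids, and the other (3CK) held organoids kept for 8 days with the cytokines IL-1β, IFN-γ and TNF-α, at doses that the labels do not state. Both came from the same line, taken through Activin A and Y-27632, then FGF2, then embedding in Matrigel and EGF, forskolin, PD98059, 5-Aza-2'-deoxycytidine and A-83. With 1 library per group there was no replicate check, so no p-value was computed, and the intervals printed here cover counting error only.

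TRIM proteins share a RING finger, 1 or more B-boxes and a coiled coil, and most act as ubiquitin ligases whose target is set by the carboxy-terminal domain. Many are interferon-stimulated genes: TRIM25 acts in RNA sensing by RIG-I, TRIM21 binds antibody on particles that have entered the cytosol, and TRIM5 recognises retroviral capsids. Others serve tasks outside immunity, such as the chromatin corepressors TRIM24, TRIM28 and TRIM33, the stem-cell RNA regulator TRIM71 and the muscle ligase TRIM63. Interferons act on such genes through the interferon-stimulated response element (ISRE), bound by interferon regulatory factors, and the gamma-activated site (GAS), named for its response to interferon gamma, whereas TNF-α and IL-1β signal through NF-kB.

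After filtering, 2487 CNT and 1398 3CK cells were kept, with 101831571 and 91860414 UMIs and medians of 28911 and 62746 UMIs per cell, and no cell barcode occurred in both libraries. Epithelial cells were taken as those with at least 2 EPCAM UMIs per 10000 (1660 in CNT, 1016 in 3CK). Mesenchymal cells had at least 5 COL1A1, COL1A2 and COL3A1 UMIs per 10000 and EPCAM under 1 (574 and 124 cells), and the remaining 253 and 258 cells met neither rule. EPCAM was at 1097 and 959 CPM (UMIs of the gene per 1000000 UMIs) in the epithelial class of CNT and 3CK, against 20.5 and 17.2 CPM in the mesenchymal class. KRT8, another epithelial marker, was not restricted to the epithelial class, with 3217 CPM in CNT mesenchymal cells and 3111 CPM in CNT epithelial cells. The epithelial class also carried hepatic RNA: the summed level of ALB, AFP, TTR and APOA1 was 84534 CPM in CNT and 27449 CPM in 3CK. Leukocyte markers summed to 82.7 and 128 CPM over all kept cells, with PTPRC at 0.31 and 0.45 CPM. In the CNT epithelial class 497 cells also passed the collagen threshold, against 49 in 3CK.

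Promoter sequence was matched for 47 of the 61 members in RefSeq (build GRCh38.p14), as windows from 250 bases before to 50 after each transcript start. Positions are counted from the first transcribed base as 0, and capitals mark the motif, searched on both strands. The ISRE core (GAAA, any 2 bases, GAAA) was present in 3.57% of 35116 promoters in the table (4.38% of 27305 genes) and in 9 of the 47 matched members (19.1%): TRIM69, TRIM21, TRIM14, TRIM34, TRIM16, TRIM26, TRIM5, TRIM2 and TRIM44. Shown first are 5 of those 9 whose match lay before the start; TRIM69 had the largest 3CK to CNT ratio of the 9, and the other 4 were within 2-fold.
TRIM69 (chr15:44736406-44736527, plus strand, match at -62): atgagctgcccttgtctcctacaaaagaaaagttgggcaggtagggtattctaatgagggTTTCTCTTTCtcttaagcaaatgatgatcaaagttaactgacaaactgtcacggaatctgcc
TRIM34 (chr11:5624851-5624980, plus strand, match at -90): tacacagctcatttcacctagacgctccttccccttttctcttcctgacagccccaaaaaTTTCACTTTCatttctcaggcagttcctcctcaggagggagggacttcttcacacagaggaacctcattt
TRIM5 (chr11:5685075-5685161, minus strand, match at -27): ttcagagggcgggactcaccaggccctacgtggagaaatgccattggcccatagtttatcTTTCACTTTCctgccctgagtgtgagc
TRIM14 (chr9:98119223-98119308, minus strand, match at -26): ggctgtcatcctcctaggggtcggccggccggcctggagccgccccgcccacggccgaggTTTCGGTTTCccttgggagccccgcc
TRIM26 (chr6:30213525-30213656, minus strand, 2 overlapping matches from -194): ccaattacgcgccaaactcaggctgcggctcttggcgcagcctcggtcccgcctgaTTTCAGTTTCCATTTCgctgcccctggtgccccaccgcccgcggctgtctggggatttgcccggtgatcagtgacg
TRIM21 carried 2 overlapping ISRE matches just after its start, from position 17, in the 30 bases shown.
TRIM21 (chr11:4393663-4393692, minus strand): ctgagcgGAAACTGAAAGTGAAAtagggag
A pair of members with the steepest ratios carried other motifs. The NF-kB motif (GGG, any 2 bases, TTTCC) was in 1.91% of all promoters (2.33% of genes) and, among matched members, in TRIM31 alone. The GAS motif (TTC, any 3 bases, GAA) was in 7.66% of all promoters and 9.38% of genes. Counted by gene, it was in 2 of 11 matched higher members (TRIM15 and TRIM40), 4 of 33 within 2-fold and 2 of 3 lower members (TRIM3 and TRIM64B).
TRIM31 (chr6:30113154-30113283, minus strand, match at -133): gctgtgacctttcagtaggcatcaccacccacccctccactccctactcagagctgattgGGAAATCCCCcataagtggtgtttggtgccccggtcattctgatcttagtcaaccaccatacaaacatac
TRIM15 (chr6:30163296-30163384, plus strand, match at -230): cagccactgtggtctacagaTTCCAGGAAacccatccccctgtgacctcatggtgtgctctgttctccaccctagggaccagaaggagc

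The family as a whole was shifted slightly upward in 3CK, with a minority of members far above the rest. Over all kept cells 13 of 61 members were at least 2-fold higher in 3CK (log2 ratio of at least 1), 5 were at least 2-fold lower and 43 lay between. Among all 26427 genes with at least 10 UMIs, 8.3% were 2-fold higher and 15.2% were 2-fold lower, so the members' shares of 21.3% and 8.20% stood on opposite sides of that background. The median log2 ratio was 0.32 over members and -0.09 over all genes. Restricted to at least 2 CPM in the higher library, 11 of 49 members were higher and 2 were lower, beside 6.58% and 10.1% of all such genes. Because mesenchymal cells made up a smaller part of 3CK than of CNT, ratios over all kept cells also carry that change of mixture, and ratios within each class are given below. The members just inside the upper limit were TRIM47 (1.29), TRIM58 (1.29) and TRIM56 (1.33) on the log2 scale, and those just outside were TRIM14 (0.98), TRIM34 (0.98) and TRIM36 (0.85). At the lower limit TRIM60 (-1.39), TRIM4 (-1.45) and TRIM3 (-1.48) lay inside and TRIM61 (-0.90), TRIM32 (-0.72) and TRIM23 (-0.69) outside.

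**Figure D1:**
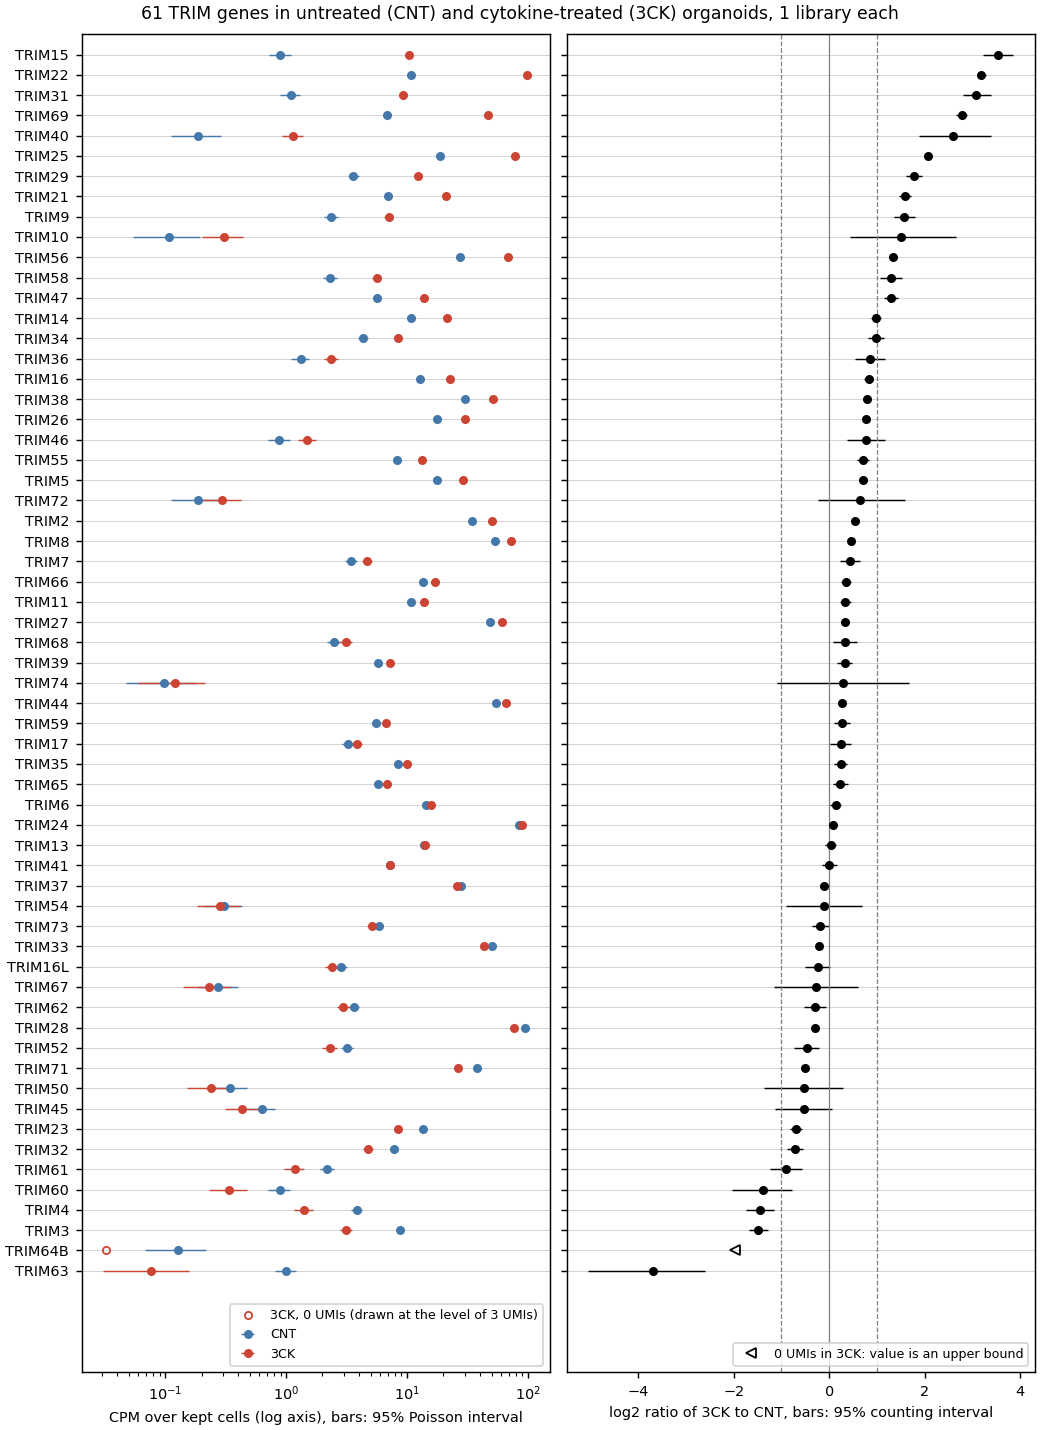
Level of each of the 61 TRIM members in CNT and 3CK (left, CPM on a log axis with 95% Poisson intervals) and the log2 ratio of 3CK to CNT (right, with 95% counting intervals; dashed lines at 1 and -1). TRIM15, TRIM22 and TRIM31 stand at the top with log2 ratios of 3.53, 3.19 and 3.08, and TRIM63 at the bottom with -3.70.

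Members of antiviral sensing and restriction held the highest levels among those that were higher in 3CK. TRIM22, an interferon-stimulated restriction factor for retroviruses, was at 10.8 CPM in CNT (95% interval 10.2 to 11.5) and 98.8 CPM in 3CK (96.8 to 101), a log2 ratio of 3.19 (3.099 to 3.28). TRIM25, the RIG-I ligase, was at 18.7 CPM and 78.6 CPM, a log2 ratio of 2.07 (2.00 to 2.15). TRIM56, known to act in STING and TLR3 signalling, was at 27.4 CPM and 68.9 CPM (log2 ratio 1.33). These 3 genes together with TRIM69 were the most abundant of the higher group in 3CK. TRIM69, which restricts vesicular stomatitis virus, was at 6.85 CPM in CNT, against 47.1 CPM in 3CK (log2 ratio 2.78, 2.66 to 2.90). TRIM21, the cytosolic antibody receptor, was at 6.92 and 20.9 CPM (1.59, 1.47 to 1.72). These 5 genes were chosen as at least 2-fold higher in 3CK. That their 3CK levels lay outside the Poisson intervals of the CNT levels follows from that choice and adds no support.

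Other members tied to innate signalling were higher by less than 2-fold. TRIM14, an adaptor of MAVS that lacks a RING finger, was at 10.8 CPM and 21.4 CPM (log2 ratio 0.98), next to the limit. TRIM38, which acts on TLR and interferon signalling, was at 29.9 and 51.5 CPM (0.78). TRIM26 was at 17.7 and 30.2 CPM (0.77). TRIM5, the capsid sensor, was at 17.8 and 28.9 CPM (0.70). TRIM8, reported in cytokine signalling, was at 53.2 and 73.0 CPM (0.45). All of these ratios had counting intervals above 0, and none of the 5 reached log2 1 over all kept cells.

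Neighbouring members on chromosome 6, in the class I region of the major histocompatibility complex, lay together in the higher group. In order of position these were TRIM31 (chr6:30102897-30113090), TRIM40 (chr6:30136140-30148735), TRIM10 (chr6:30151943-30164009) and TRIM15 (chr6:30163546-30172693), in GRCh38.p14 coordinates from RefSeq. TRIM15 had 91 UMIs in CNT and 949 in 3CK, which is 0.89 and 10.3 CPM and a log2 ratio of 3.53 (3.22 to 3.86). TRIM31, a ligase reported to act on MAVS and NLRP3, had 111 and 849 UMIs (1.09 and 9.24 CPM, log2 ratio 3.08). TRIM40 had 19 and 104 UMIs (2.60, 1.89 to 3.39), and TRIM10 had 11 and 28 (1.50, 0.45 to 2.65). TRIM10 is thus the member of the higher group whose interval reached below 1. The next members along the chromosome, TRIM26 and TRIM39 (5.76 and 7.21 CPM, log2 ratio 0.32), were within 2-fold. TRIM10 overlaps TRIM15, and TRIM31 overlaps its antisense gene TRIM31-AS1; the labels do not state whether counting used strand, and without it reads of such pairs cannot be told apart.

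The remaining members of the higher group were TRIM29, TRIM47, TRIM9 and TRIM58. TRIM29, a RING-less protein of stratified and airway epithelium, was at 3.59 CPM in CNT, against 12.3 CPM in 3CK (log2 ratio 1.77). TRIM47 was at 5.65 and 13.8 CPM (1.29). TRIM9, best known from neurons, was at 2.37 and 7.04 CPM (1.57), and TRIM58, known from erythroid cells, was at 2.30 and 5.63 CPM (1.29). These 4 genes stayed below 15 CPM in both libraries.

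Of the 5 members at least 2-fold lower in 3CK, only TRIM3 and TRIM4 reached 2 CPM. TRIM3, an NHL-repeat protein of neurons, was at 8.80 CPM in CNT, against 3.15 CPM in 3CK (log2 ratio -1.48, -1.68 to -1.29). TRIM4 was at 3.83 and 1.40 CPM (-1.45, -1.75 to -1.16). TRIM63, the muscle atrophy ligase also called MuRF1, had 101 UMIs in CNT and 7 in 3CK (-3.70). TRIM60 had 90 and 31 UMIs (-1.39), with an interval reaching -0.79. TRIM64B had 13 UMIs in CNT and 0 in 3CK, where a count of 0 allows 0.03 CPM at 3 UMIs. That sets its log2 ratio to at most -1.97, and its counting interval, which also covers the error of the CNT count, reached -1.46. TRIM64B belongs to a group of near-identical genes on chromosome 11, and reads of such copies may have been split between them. Summed markers of muscle (MYH3, TTN, ACTC1 and DES) were at 78.5 CPM in CNT, against 37.4 CPM in 3CK, beside the difference in TRIM63. TTN made up most of that change (55.6 and 9.63 CPM), while DES was higher in 3CK (17.0 and 23.5 CPM) and MYH3 was at 1.56 and 1.57 CPM. By class, TRIM63 had 87 UMIs in CNT and 5 in 3CK in epithelial cells (-4.00), and 9 and 1 in mesenchymal cells. In cells of neither class it had 5 and 1. TTN in CNT was highest in cells of neither class (304 CPM), against 48.7 CPM in epithelial cells. The part of the muscle markers in the TRIM63 value was not tested.

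Chromatin and developmental members were among the most abundant of the family and lay within 2-fold. TRIM28, the corepressor of KRAB zinc-finger proteins, was at 95.02 CPM in CNT, against 77.1 CPM in 3CK (log2 ratio -0.30). TRIM24 was at 84.3 and 89.7 CPM (0.09), and TRIM33, which acts with SMAD proteins, at 50.2 and 43.6 CPM (-0.20). With TRIM66 (13.5 and 17.2 CPM, 0.35), none of the 4 members with a PHD finger and bromodomain passed 2-fold in either direction. TRIM71, which with LIN28 marks early embryonic cells, was at 37.7 and 26.5 CPM (-0.51). TRIM2, another NHL-repeat protein, was at 34.6 and 50.4 CPM (0.54), and TRIM32 at 7.76 and 4.73 CPM (-0.72), so the 4 NHL members included 1 lower, TRIM3, and 0 higher. TRIM44, a RING-less member, was at 54.2 and 65.3 CPM (0.27), TRIM27 at 48.3 and 61.1 CPM (0.34), and TRIM23, which carries an ARF domain, at 13.6 and 8.43 CPM (-0.69).

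Sorted by carboxy-terminal domain, the higher members fell mostly into the largest class, which held 29 of the 61 members. Of 29 measured members listed with a SPRY domain, the fold that recognises targets such as capsids and antibody, 8 were 2-fold higher and 2 were lower. Their median log2 ratio was 0.66. TRIM64B, which was lower, was on none of the domain lists and enters none of these counts. Of 11 members listed with no named carboxy-terminal domain, 4 were higher (TRIM31, TRIM40, TRIM29 and TRIM56) and 0 were lower. These 11 include TRIM16L, a near-identical relative of the listed SPRY member TRIM16. Of 7 members with a COS box, which binds microtubules, TRIM9 was higher and TRIM63 was lower. The 2 members with a transmembrane segment, TRIM13 and TRIM59, and the single members with an ARF, MATH or filamin domain (TRIM23, TRIM37 and TRIM45) were within 2-fold. Beside these counts stand the share of the whole family, 13 of 61 higher (21.3%), and the background of 8.3% among all genes. No test of enrichment was made, and no link of domain to ratio is read from these counts.

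Within epithelial cells more members were higher in 3CK than over all kept cells. Of 60 members with at least 10 UMIs there, 15 were 2-fold higher, 5 were lower and 40 lay between, beside 10.1% and 16.5% of 24675 genes; the members' median log2 ratio was 0.35 and that of all genes was -0.04. At 2 CPM or more, 13 of 48 were higher and 3 were lower, beside 8.1% and 10.7% of all genes. TRIM22 went from 5.76 CPM in CNT (439 UMIs) to 93.4 CPM in 3CK (6547 UMIs), a log2 ratio of 4.02 (3.88 to 4.16), which is 16.2-fold. TRIM15 stood at 1.17 and 13.3 CPM (3.51), TRIM31 at 1.44 and 10.9 CPM (2.92), TRIM69 at 6.95 and 47.3 CPM (2.77), and TRIM25 at 18.3 and 83.4 CPM (2.19). TRIM14 (1.05) and TRIM34 (1.00) joined the higher group by a narrow margin. TRIM61 (-1.34) joined the lower group, where TRIM63 was at -4.00, TRIM4 at -1.99 and TRIM3 at -1.70. TRIM64B had 7 and 0 UMIs there, under the minimum of 10, and was not counted. With the 0 set to 3 UMIs its log2 ratio was at most -1.10, and its counting interval reached -0.41.

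Mesenchymal cells showed a shorter list. Of 51 members with at least 10 UMIs, 4 were 2-fold higher, 5 were lower and 42 lay between, beside 6.18% and 19.1% of 20089 genes, and the medians were -0.17 for members and -0.23 for all genes. At 2 CPM or more, 4 of 45 were higher and 3 were lower, beside 5.41% and 14.1%; these shares lie close to the background on the higher side. The 4 were TRIM69 (6.97 and 41.9 CPM, log2 ratio 2.59), TRIM36 (1.22 and 4.72 CPM, 1.95), TRIM21 (5.70 and 21.3 CPM, 1.90) and TRIM22 (29.7 and 99.3 CPM, 1.74). TRIM36, a microtubule-associated ligase, rested on 24 and 43 UMIs, and TRIM21 was at 0.89 with each cell given equal weight. Leukocyte markers were also higher in the mesenchymal class of 3CK: the 7 genes summed to 56.5 CPM in CNT, against 199 CPM in 3CK. Among them PTPRC was at 0.56 and 3.62 CPM, TYROBP at 27.1 and 87.9 CPM and CD3E at 0.05 and 0 CPM, and their part in these ratios was not tested. The lower members were TRIM73 (-1.45), TRIM16L (-1.29) and TRIM2 (-1.05), and, on 11 or fewer UMIs in all, TRIM45 and TRIM63. TRIM73 and TRIM16L have near-identical relatives (TRIM74 and TRIM50, and TRIM16), so reads may have been split among copies. Scaling by trimmed means in place of the total raised mesenchymal log2 ratios by 0.18 and left 3 members lower.

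Among 51 members with at least 10 UMIs in both classes, 36 had the larger log2 ratio in epithelial cells, beside 61.9% of 19808 such genes at large. The counting intervals of both ratios did not overlap for 21 of these 36, beside 28.2% of all genes in that direction. Intervals are narrower for abundant genes, and nothing particular to the family is read from these counts. With each cell given equal weight 29 of 51 had the larger epithelial ratio. TRIM22 differed by 2.28 log2 units (4.02 in epithelial, 1.74 in mesenchymal cells), TRIM9 by 2.15, TRIM29 by 1.93, TRIM58 by 1.51 and TRIM25 by 1.39 (2.19 and 0.80). TRIM29 was at 3.05 and 3.07 CPM in mesenchymal cells of CNT and 3CK, and TRIM58 at 4.22 and 4.28 CPM, with log2 ratios of 0.01 (-0.69 to 0.68) and 0.02 in that class. Equal weight per cell gave TRIM29 0.93 there, and it lowered the difference between the classes to 0.99 for TRIM22, 1.18 for TRIM29 and -0.09 for TRIM9. TRIM9 rested on 17 and 7 mesenchymal UMIs. With each cell given equal weight the mesenchymal ratio of TRIM25 was 1.22. TRIM69 (2.77 and 2.59), TRIM34 (1.00 and 0.89) and TRIM21 (1.49 and 1.90) had overlapping intervals. Members with the larger ratio in mesenchymal cells and intervals apart numbered 5, beside 13.7% of all genes: TRIM36, TRIM55, TRIM37, TRIM3 and TRIM4, the last 2 because they were less reduced there (-0.58 and -0.38). With 1 library per group these differences between classes were not tested.

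**Figure D2:**
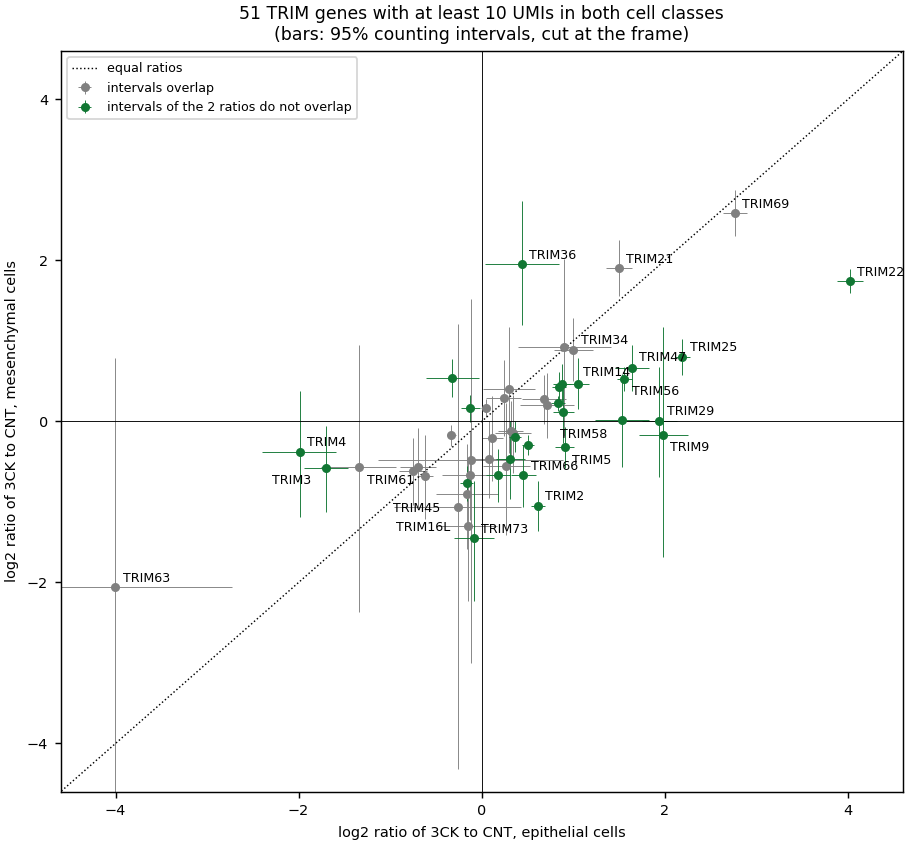
Log2 ratio of 3CK to CNT in epithelial (horizontal) and mesenchymal (vertical) cells for the 51 TRIM members with at least 10 UMIs in both, with 95% counting intervals; the dotted line marks equal ratios. TRIM69 and TRIM21 lie near the line, TRIM22 and TRIM25 lie below it, and TRIM36 lies above it.

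The differing ratios of TRIM22 came with different starting levels. In CNT its level was 5.76 CPM in epithelial and 29.7 CPM in mesenchymal cells, and in 3CK it was 93.4 and 99.3 CPM, so that the epithelial to mesenchymal log2 ratio moved from -2.36 to -0.09. TRIM56 was alike: 21.2 CPM in epithelial and 47.4 CPM in mesenchymal cells of CNT, and 62.5 and 68.6 CPM in 3CK. TRIM47 was at 4.06 and 12.4 CPM in CNT, and at 12.6 and 19.6 CPM in 3CK. TRIM25 ran the other way, with 18.3 and 19.0 CPM in CNT and 83.4 and 33.2 CPM in 3CK. TRIM21 and TRIM69 were near equal between the classes in both libraries.

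**Figure D3:**
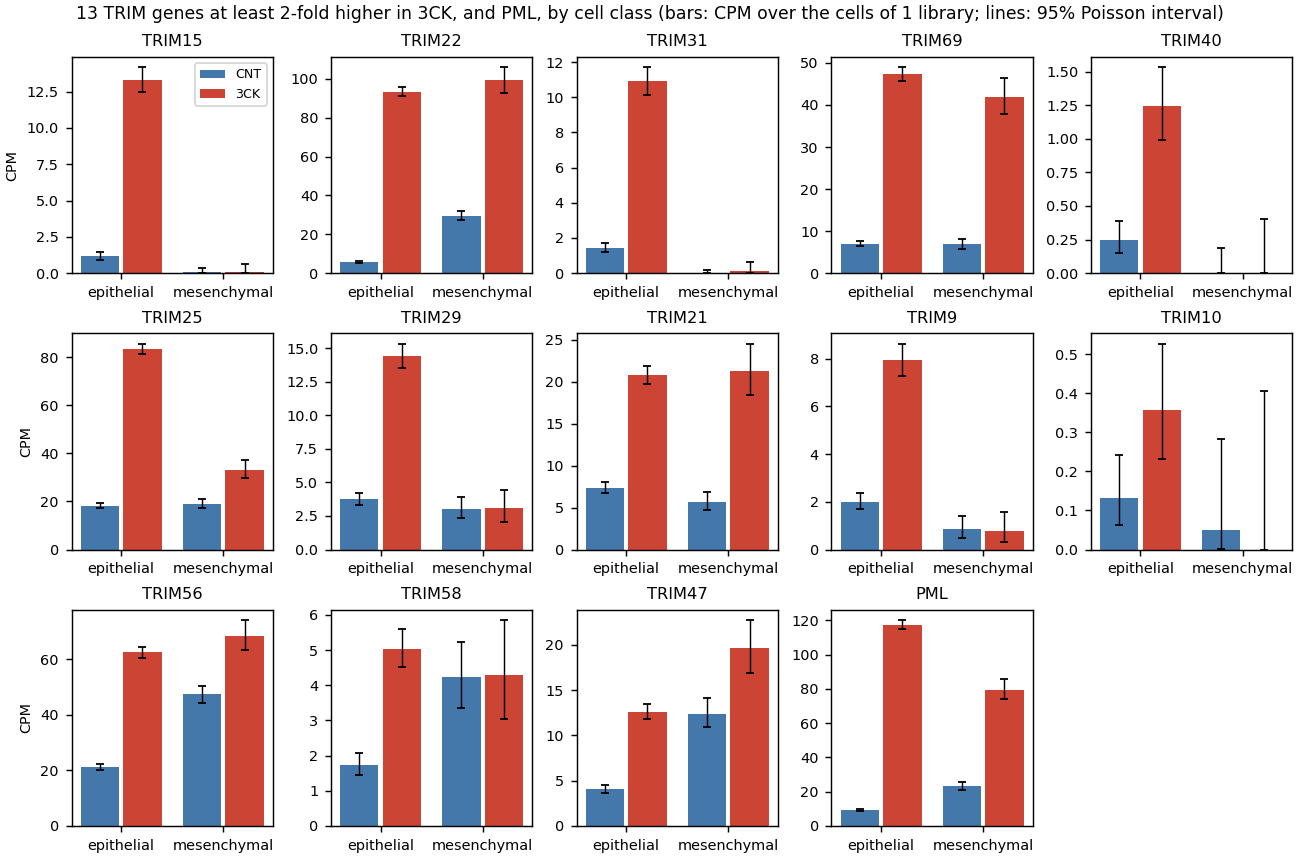
CPM of the 13 TRIM members at least 2-fold higher in 3CK, and of PML, in epithelial and mesenchymal cells of CNT (blue) and 3CK (red), with 95% Poisson intervals. TRIM22 reaches 93.4 and 99.3 CPM in the 2 classes of 3CK, while TRIM15 reaches 13.3 CPM in epithelial and 0.11 CPM in mesenchymal cells.

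The chromosome 6 group was close to absent from mesenchymal cells. There TRIM15 had 2 UMIs in CNT and 1 in 3CK, TRIM31 had 0 and 1, TRIM10 had 1 and 0, and TRIM40 had 0 and 0, for which 3 UMIs would be 0.15 CPM in CNT and 0.33 CPM in 3CK. In 3CK the epithelial level of TRIM15 was 13.3 CPM, against 0.11 CPM (0.0028 to 0.61) in mesenchymal cells. TRIM10 was at only 0.13 and 0.36 CPM in epithelial cells of CNT and 3CK, near those 3-UMI levels. Its counts are too few to tell the classes apart.

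Comparing the classes within a library, which the grouping of members did not use, 10 of 60 members were 2-fold higher in epithelial and 12 in mesenchymal cells of CNT, beside 16.7% and 26.5% of 23949 genes. In 3CK 12 of 58 were higher in epithelial and 8 in mesenchymal cells, beside 17.1% and 19.7% of 22528 genes. The members' shares therefore lay near those of genes at large. Scaling by trimmed means shifts these log2 ratios toward the epithelium by 0.39 in CNT and 0.18 in 3CK. Among members at 2 CPM or more that were 2-fold higher in epithelial cells of both libraries was TRIM71: 41.7 and 7.38 CPM in epithelial and mesenchymal cells of CNT, and 27.1 and 4.61 CPM in 3CK (log2 ratios 2.50 and 2.56). With each cell given equal weight the CNT ratio was 0.41, and the cause was not tested. TRIM6, a ligase in type I interferon signalling, had log2 ratios of 1.53 in CNT and 1.84 in 3CK. In 3CK TRIM9 (3.37), TRIM29 (2.23) and TRIM2 (2.13) were further epithelial members, with TRIM2 at 52.4 and 12.0 CPM. On the mesenchymal side TRIM55, a muscle RING protein, was at 18.8 CPM against 3.15 CPM in epithelial cells of CNT, and at 27.3 against 2.53 CPM in 3CK (log2 ratios -2.58 and -3.44). TRIM8 was at 138 against 30.4 CPM in CNT and 162 against 54.1 CPM in 3CK, the highest level of any member in these classes. TRIM59 (-1.99 and -1.59) and TRIM7 (-1.85 and -1.34), a ligase first known for binding glycogenin, were mesenchymal in both libraries, but with equal weight per cell TRIM59 was at -0.77 in 3CK.

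Per cell, UMIs of the most abundant higher members were spread over many treated cells, and those of others over fewer. To compare cells of unequal depth, each was thinned to 5000 UMIs and shallower cells were left out (598 CNT and 240 3CK epithelial cells). A TRIM22 UMI was then found in 23 of 1062 CNT epithelial cells (2.17%, exact 95% interval 1.38 to 3.23) and in 284 of 776 3CK epithelial cells (36.6%, 33.2 to 40.1). Over cells at full depth a TRIM22 UMI was found in 15.1% and 72.6%. At that depth TRIM29 was found in 24.9% of 3CK epithelial cells, TRIM15 in 22.4% and TRIM31 in 14.9%. TRIM40 was found in 5.12% and TRIM10 in 1.97% of them. For TRIM25 the thinned shares were 9.98% and 31.2%, for TRIM69 4.05% and 20.1%, and for TRIM56 11.1% and 27.8%. TRIM15 was found in 0.85% of CNT and 5.80% of 3CK epithelial cells, against 0 of 107 thinned 3CK mesenchymal cells, which allows a share of cells with a UMI of up to 2.80% at 3 counts. At full depth 1 of 124 such cells held a TRIM15 UMI. The deposited depth was similar in these classes (median 72198 and 65363 UMIs in 3CK). The 13 higher members, whose choice fixes the direction, are given together as a description: 746 of 1062 CNT epithelial cells (70.2%) had none of their UMIs, against 168 of 776 3CK epithelial cells (21.6%). In mesenchymal cells the counts with none were 168 of 320 (52.5%) and 27 of 107 (25.2%). TRIM28, for comparison, was found in 34.7% and 30.9% of epithelial cells.

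Among treated epithelial cells the levels of most of these members moved with those of other cytokine response genes. The 730 3CK epithelial cells with at least 10000 UMIs were sorted into 4 equal groups by the summed level of 7 interferon-gamma response genes (IRF1, GBP1, GBP2, TAP1, PSMB9, IRF9 and SP100). From the lowest to the highest group TRIM29 went from 5.58 to 22.8 CPM, TRIM15 from 4.99 to 19.5 CPM, TRIM47 from 4.99 to 17.4 CPM and TRIM22 from 62.7 to 122 CPM. TRIM21 (14.3 to 27.4 CPM), TRIM25 (59.7 to 96.4 CPM), TRIM69 (38.2 to 57.6 CPM), TRIM38 (41.8 to 59.9 CPM) and TRIM56 (54.6 to 72.5 CPM) showed smaller spans. TRIM28 (83.7 to 76.0 CPM) and TRIM71 (36.9 to 17.9 CPM) were lower in the highest group than in the lowest. Members within 2-fold between the libraries did not share 1 direction. TRIM8 (43.1 to 63.0 CPM) and TRIM44 (50.6 to 62.5 CPM) climbed, whereas TRIM2 (69.4 to 38.0 CPM) was lower in the highest group. Of the 13 higher members, TRIM9 (8.67 to 7.54 CPM) and TRIM58 (4.47 to 4.10 CPM) did not climb in this order, whereas in the NF-kB order described next they went from 8.01 to 10.3 CPM and from 3.26 to 4.80 CPM. Sorting instead by the NF-kB response genes NFKBIA, TNFAIP3, ICAM1 and BIRC3, a list chosen after the values were seen, gave the widest spans, among members reaching 2 CPM, to TRIM47 (4.14 to 17.5 CPM), TRIM31 (4.82 to 16.1 CPM) and TRIM7 (1.29 to 5.78 CPM). Of members within 2-fold between the libraries, TRIM24 (67.1 to 104 CPM) and TRIM44 (46.1 to 74.4 CPM) also climbed in the NF-kB order, whereas TRIM28 (85.5 to 77.5 CPM) did not. TTR was lower along the same order, from 31759 to 12156 CPM over the interferon-gamma groups and from 31690 to 14411 CPM over the NF-kB groups, and its part in these spans was not tested. These cells come from 1 library and share its depth and free RNA, so the spans are a description.

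**Figure D4:**
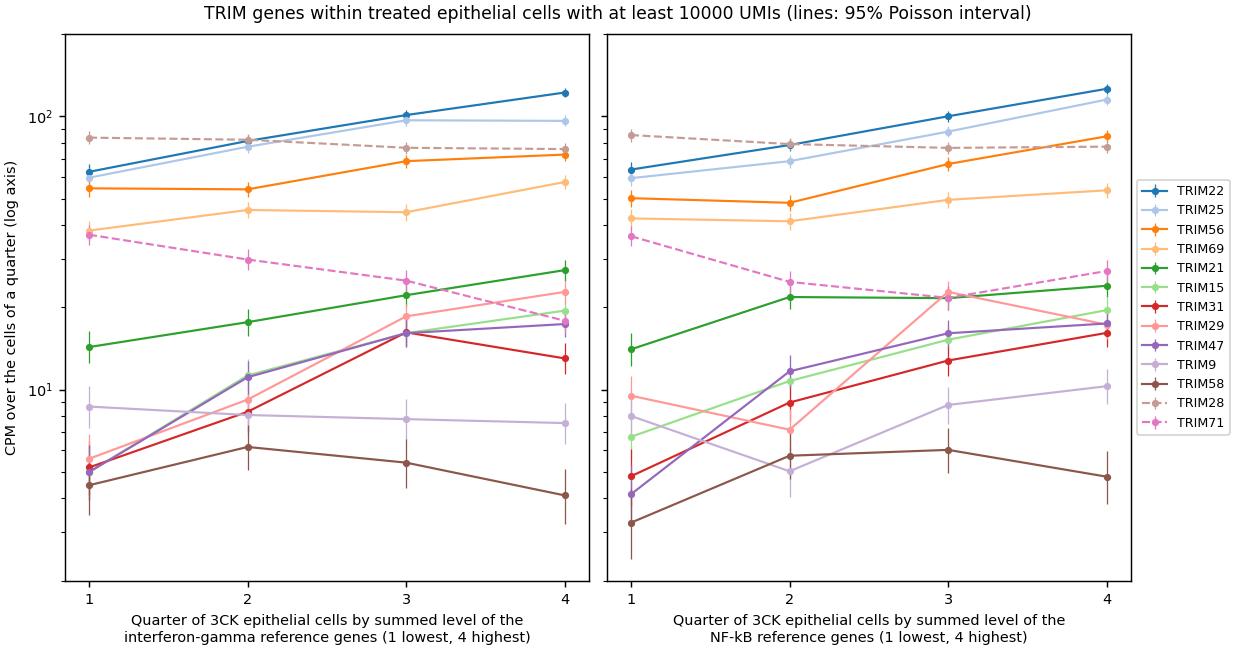
CPM of selected TRIM members in 3CK epithelial cells with at least 10000 UMIs, sorted into 4 groups by interferon-gamma (left) or NF-kB (right) response genes (log axis, 95% Poisson intervals). TRIM15 climbs from 4.99 to 19.5 CPM on the left and TRIM47 from 4.14 to 17.5 CPM on the right. The dashed lines of TRIM28 and TRIM71, picked from the members within 2-fold between the libraries, do not climb. Other members of that group, such as TRIM44, are not drawn and do climb.

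Because hepatic RNA differed between the libraries, the epithelial ratios were recomputed in cells with at least 100 TTR UMIs per 10000 (1468 CNT, 514 3CK cells) and under 100 (192 and 502 cells), a split made after seeing the data. TTR, the hepatic transport protein transthyretin, was the most abundant of the hepatic markers. TRIM22 (log2 ratio 3.96 and 3.25), TRIM15 (3.49 and 2.85), TRIM31 (2.49 and 3.47), TRIM69 (2.73 and 2.32), TRIM25 (1.77 and 1.99), TRIM9 (1.50 and 1.73), TRIM21 (1.40 and 1.34) and TRIM56 (1.08 and 1.45) stayed above 1 in TTR-rich and TTR-poor cells. TRIM29 did not: it was at 2.77 and 15.6 CPM in TTR-rich cells of CNT and 3CK (2.49), and at 10.8 and 13.0 CPM in TTR-poor cells (0.27, -0.05 to 0.60). TRIM47 (1.69 and 0.81), TRIM58 (1.43 and 0.94) and, on few UMIs, TRIM10 (1.57 and 0.37, the latter -1.50 to 2.82) were under 1 in TTR-poor cells, and TRIM40 was at 2.21 and 1.81. TRIM14 was at 0.83 in each group, below the value of 1.05 in all epithelial cells. The median over members was 0.052 in TTR-poor cells. Among the lower members, TRIM3 (-1.95 and -1.37) and TRIM4 (-1.99 and -2.32) stayed below -1 in both groups.

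**Figure D5:**
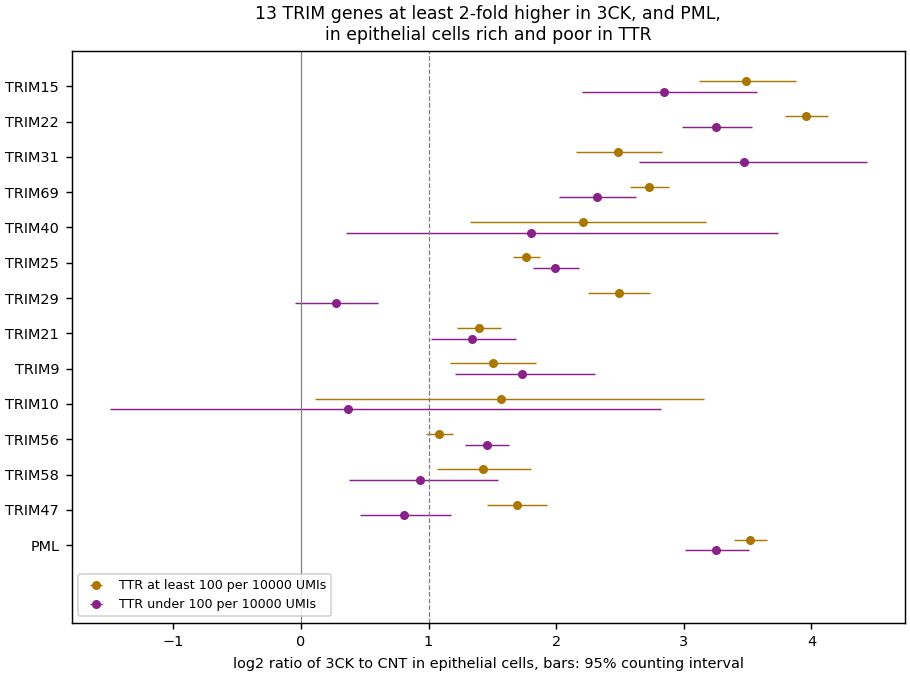
Log2 ratio of 3CK to CNT in epithelial cells rich (brown) and poor (purple) in TTR for the 13 higher TRIM members and PML, with 95% counting intervals; the dashed line marks 1. TRIM22 lies at 3.96 and 3.25, whereas TRIM29 lies at 2.49 in TTR-rich and at 0.27 in TTR-poor cells.

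TRIM59, a transmembrane member, differed more between cycling and other cells than between the libraries. In cells with at least 10000 UMIs, those with 1 or more MKI67 and TOP2A UMIs per 10000 were compared with the rest. TRIM59 was at 17.6 CPM in 39 cycling and 2.39 CPM in 974 other epithelial cells of CNT, and at 34.2 and 3.61 CPM in 27 and 703 such cells of 3CK. In mesenchymal cells it was at 38.7 and 6.86 CPM in CNT and at 40.0 and 6.38 CPM in 3CK. The log2 ratio of cycling to other cells was thus 2.89, 3.24, 2.50 and 2.65, whereas its 3CK to CNT ratio over all kept cells was 0.27. TRIM28 was higher by less in cycling cells (0.27 to 0.64 over the same 4 comparisons).

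On chromosome 11 a run of related SPRY members gave mixed values. TRIM6 (chr11:5596111-5612952), TRIM34 (chr11:5619944-5644398), TRIM5 (chr11:5588635-5685074) and TRIM22 (chr11:5689790-5710863) lie side by side, and the annotated span of TRIM5 covers TRIM6 and TRIM34. Their log2 ratios over all kept cells were 0.13, 0.98, 0.70 and 3.19. TRIM21 (1.59), TRIM68 (0.33) and TRIM3 (-1.48) lie on the same arm. The 4 neighbours thus ran from a value near 0 to the second largest ratio of the family.

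Read against the motif, the 9 members with an ISRE core had log2 ratios from 0.27 to 2.78, with a median of 0.82, and 9 of 9 were above 0. The 38 matched members without it ranged from -3.70 to 3.53, with a median of 0.25, and 23 were above 0. The core did not mark the higher group: it was in 2 of 11 matched members that were 2-fold higher (18.2%), 7 of 33 within 2-fold (21.2%) and 0 of 3 that were lower. TRIM15 and TRIM31, the members with the highest ratios among those matched, had no ISRE core in the 300 bases searched, of which a stretch is shown above; this says only that these letters are not in them, and TRIM22 had no matched promoter. The motif counts are a description of short windows and not of bound sites.

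Partners of the TRIM proteins were counted from lists of named genes. Beside the 8.3% of all genes that were 2-fold higher and the 15.2% that were lower, of 6 partners of TRIM25 in RNA sensing 4 were higher in 3CK: IFIH1, the sensor MDA5 (4.52 and 71.9 CPM, log2 ratio 3.99), DDX58, which encodes RIG-I (19.0 and 138 CPM, 2.86), DHX58 (2.28) and ZC3HAV1 (1.37). MAVS (0.36) and RNF135 (0.23) were within 2-fold. Of 12 E2 enzymes that hand ubiquitin to RING ligases, 0 were higher or lower by 2-fold, with a median of 0.20; UBE2N, which builds K63-linked chains, had a log2 ratio of 0.46. None of 6 silencing partners of TRIM28, 5 partners of TRIM5 and TRIM21 or 3 partners of TRIM71 passed 2-fold, and LIN28A was at 28.4 and 21.0 CPM (-0.43). The 7 interferon-gamma response genes were all 2-fold higher, with a median log2 ratio of 4.01.

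Proteins of the TRIM class with other names were measured beside the members. PML, which is TRIM19 and builds nuclear bodies, was at 12.4 CPM in CNT, against 117 CPM in 3CK (log2 ratio 3.24, 3.15 to 3.32), with ratios of 3.66 in epithelial and 1.78 in mesenchymal cells. Like TRIM22, it was higher in mesenchymal than in epithelial cells of CNT (23.2 and 9.32 CPM). In 3CK PML was lower in mesenchymal cells (79.6 and 118 CPM), whereas TRIM22 was at 99.3 and 93.4 CPM. MID1, a microtubule-bound ligase, was at 71.5 and 83.6 CPM (0.23), and MID2 at 2.41 and 2.44 CPM (0.02). TRIML2 was at 14.2 CPM in both, and TRIML1 had 21 UMIs in CNT and 0 in 3CK.

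The other members within 2-fold over all kept cells were spread over a wide range of levels. TRIM16 (12.7 and 22.5 CPM, 0.82), TRIM46 (0.77) and TRIM55 (0.70) lay on the higher side. TRIM11, TRIM13, TRIM17, TRIM35, TRIM37, TRIM39, TRIM41, TRIM65 and TRIM68 had log2 ratios from -0.10 to 0.34. TRIM52, TRIM62, TRIM73 and TRIM16L were between -0.47 and -0.18. The members TRIM45, TRIM50, TRIM54, TRIM67, TRIM72 and TRIM74, together with TRIM10 of the higher group, stayed under 1 CPM in both libraries, where intervals on the ratio spanned more than 1 log2 unit. Of the 15 symbols under 10 UMIs, most belong to the TRIM43, TRIM48, TRIM49, TRIM51 and TRIM64 groups, each with between 0 and 9 UMIs.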

How the data were processed

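The authors deposited 1 matrix of UMI counts per library, from single cell 3' libraries with Cell Ranger 7.1.0 and build GRCh38 per the submitters' processing notes. A count there is 1 tag per captured molecule, so levels were not divided by gene length. Barcodes with under 500 genes, over 20% mitochondrial UMIs or the highest Scrublet scores (scanpy 1.11.5; 0.8% per 1000 barcodes) were removed, 770 in CNT and 243 in 3CK. UMIs were summed per library and cell class, and divided by all UMIs of those cells. Ratios carry exact binomial and levels Poisson 95% intervals. A 0 was set to 3 UMIs for bounds. Where a ratio is called higher or lower, it is at least 2-fold.

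Members and gene lists were chosen with earlier results of these data known, and 1 gene of the interferon-gamma list is not reported here. Named with values are members past 2-fold with at least 2 CPM, the 10 most abundant, the 3 nearest each threshold, the 5 extremes between classes, and PML, MID1 and MID2. Others are named to account for every member. Ratios were checked on simulated Poisson counts with 200 changed genes. The simulation held no variation between cells or libraries, so it checks the calculation only. Alternatives were trimmed-mean scaling (edgeR 4.0.16), other totals, filters, class rules and equal weight per cell. Protein sequences were not used here.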

Additional observations from a re-analysis of the deposited data

Results flagged for a closer look

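For 6 members the log2 ratio of 3CK to CNT had opposite signs in epithelial and mesenchymal cells, with both counting intervals away from 0, beside 12.1% of the 19808 genes with at least 10 UMIs in both classes. Such differences were not tested, since each class had 1 library per group. TRIM2 was at 0.62 in epithelial and -1.05 in mesenchymal cells, a difference of 1.66. TRIM5, the capsid sensor, was at 0.91 and -0.32 (difference 1.23). TRIM66, a PHD and bromodomain protein, was at 0.46 and -0.67 (difference 1.13). TRIM13, an endoplasmic reticulum ligase, was at 0.18 and -0.67 (difference 0.85), and TRIM44 was at 0.50 and -0.29 (difference 0.80). TRIM55, the muscle RING protein, ran the other way, at -0.32 and 0.54 (difference -0.86). With each cell given equal weight 3 of the 6 lost the opposite signs: mesenchymal TRIM44 was at 0.38, TRIM13 at 0.14 and TRIM66 at 0.60. In epithelial cells rich in TTR, a split added after seeing the data, TRIM66 was at -0.36, TRIM13 at -0.0047, TRIM2 at 0.36 and TRIM44 at 0.23. In TTR-poor cells TRIM2 was at 0.03 (-0.095 to 0.16) and TRIM44 at 0.10 (-0.03 to 0.22). TRIM66 was at 0.0052 and TRIM13 at 0.12 there, also with intervals that included 0. TRIM5 (0.62 in TTR-rich and 1.01 in TTR-poor cells) and TRIM55 (-1.01 and -0.86) kept their epithelial signs.

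Outside the member list, the level of the antisense gene TRIM31-AS1 rested on 31 CNT UMIs and 231 3CK UMIs, and its log2 ratio was 3.05 (2.50 to 3.64). It overlaps TRIM31, and the labels do not state whether counting used strand.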

How the results depend on the processing

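Family counts were held to within 1.5 times the reported count. Family medians were held to a band between the medians of the members' lower and upper interval limits. That band describes single members and is not an error of the family median. Of 140 alternative values of the family counts and medians, 132 stayed within these limits and 8 did not. Direction was followed only for single genes, where 0 alternative values turned the sign of a ratio past 2-fold. With each cell given equal weight, 8 members were lower in epithelial cells, 9 were higher and 8 lower in mesenchymal cells, and 17 were higher in epithelial than mesenchymal cells of CNT. The 5 lower members in mesenchymal cells became 2 under the stricter barcode filter, 3 under trimmed-mean scaling and 3 with at least 50 UMIs. The epithelial median was 0.052 in cells with TTR under 100 per 10000, a split added after seeing the data. Among single genes, 40 alternative values lost a 2-fold call and 27 gained one. Over all kept cells with equal weight, TRIM47 was at 0.91 and TRIM60 at -0.35, and in mesenchymal cells TRIM21 was at 0.89. The cause was not tested. With 1 library per group no paired analysis was possible because there were no replicates.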
